A study of Mus musculus with 16 samples.

Results

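The NR4A family consists of 3 genes in the mouse, Nr4a1 (Nur77), Nr4a2 (Nurr1) and Nr4a3 (Nor1), and was selected by gene symbol, as 3 of the 54532 genes in the count table, with earlier results of these data known. All 3 passed the filter on low counts in every comparison. The RNA was from mouse (C57BL/6J) CD8+ T cells, taken naive from the spleen and differentiated in culture for 4 days by repetitive activation into TCF1+CD8+ T cells, so all groups share that earlier activation and no group is naive. Cells were kept for 1 h with PGE2 (100 ng/ml) or without it and then for 4 h either in IL-2 (85 U/ml) alone, here unstimulated, or in the same IL-2 with beads carrying antibodies to CD3 and CD28 (1 bead per cell), here stimulated. The 4 groups were thus unstimulated untreated, unstimulated with PGE2, stimulated untreated and stimulated with PGE2, each with 4 replicates numbered 1 to 4, and what samples of one number share is not given in the sources used here.

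NR4A proteins are called orphan nuclear receptors because they act as transcription factors without a known hormone that switches them on, so that their activity is set largely by how much of them is made. Their genes are immediate-early genes: calcium, NFAT and MEF2 downstream of the T cell receptor induce them within hours, and in many tissues so does cAMP acting through CREB. PGE2, a lipid mediator, raises cAMP in T cells through its receptors EP2 and EP4. In CD8+ T cells NR4A factors are known for restraining effector cytokine genes and for promoting the exhausted state.

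Total counts were 22678254 to 42950763 per sample, and mitochondrial genes took 1.43% to 1.77% of them. The members were covered by 213 counts (Nr4a2 in unstimulated replicate 1) to 53117 counts (Nr4a1 in stimulated replicate 1). All 7 of 7 markers of CD8 T cells, Tcf7 (which encodes TCF1) included, had a mean of at least 1 CPM in each group. Their levels were not alike in all groups. Mean Tcf7 was 1175 and 1187 CPM in unstimulated cells without and with PGE2, and 309 and 407 CPM in stimulated cells. Lef1 was at 206 CPM in unstimulated and 67.0 CPM in stimulated untreated cells. Summed markers of B cells (5 genes) lay between 4.47 and 21.0 CPM, those of myeloid cells (6 genes) between 3.04 and 6.57 CPM and those of erythroid cells (4 genes) between 0.0845 and 0.821 CPM, and the NK cell gene Ncr1 was at 0 in every group. The NK list (3 genes) rested on Eomes, which CD8 T cells also use, and its sum was 12.3 to 24.1 CPM in unstimulated untreated samples and 112 to 178 CPM in stimulated untreated ones. The CD4 T cell list (3 genes) summed to between 13.2 and 36.7 CPM, carried by Zbtb7b, and Cd4 itself reached at most 1.87 CPM. The B cell sum was 12.02 to 21.0 CPM in unstimulated untreated samples and 4.92 to 11.7 CPM in stimulated untreated ones, opposite in direction to the NR4A genes, and the part of these lists in the results was not tested.

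On GRCm38, Nr4a1 (ENSMUSG00000023034) lies at chr15:101254269-101274795 on the plus strand, Nr4a2 (ENSMUSG00000026826) at chr2:57106830-57124003 on the minus strand and Nr4a3 (ENSMUSG00000028341) at chr4:48045153-48086447 on the plus strand. No member shares exon bases with another annotated gene. Because cAMP is the route by which PGE2 is known to act, the bases before the transcription start are shown for each member, from the RefSeq promoter windows of GRCm38.p6 (3 of 3 members matched), written 5′ to 3′ on the strand of the gene. Capitals mark the short form of the cAMP response element (CRE), TGACG or CGTCA, that CREB is known to bind. Bases that the gene annotation places in an exon were left out, which shortened the Nr4a3 stretch from 250 to 98 bases. The stretch of Nr4a1 (chr15:101266596-101266845, plus strand) is promoter sequence that also lies in an intron of 1 longer annotated transcript. Those of Nr4a2 (chr2:57124004-57124253, minus strand) and Nr4a3 (chr4:48045055-48045152, plus strand) lie upstream of the annotated gene.
Nr4a1: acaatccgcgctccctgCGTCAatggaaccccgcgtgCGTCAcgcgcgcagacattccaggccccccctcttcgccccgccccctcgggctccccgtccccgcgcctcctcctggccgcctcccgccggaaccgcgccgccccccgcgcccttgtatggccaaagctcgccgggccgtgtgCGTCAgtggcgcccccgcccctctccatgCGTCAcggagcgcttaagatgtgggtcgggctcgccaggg
Nr4a2: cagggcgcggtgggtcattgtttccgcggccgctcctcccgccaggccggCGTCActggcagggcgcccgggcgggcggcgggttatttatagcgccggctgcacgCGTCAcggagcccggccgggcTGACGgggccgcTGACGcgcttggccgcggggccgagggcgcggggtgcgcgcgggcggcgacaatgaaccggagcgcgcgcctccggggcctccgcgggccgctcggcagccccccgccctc
Nr4a3: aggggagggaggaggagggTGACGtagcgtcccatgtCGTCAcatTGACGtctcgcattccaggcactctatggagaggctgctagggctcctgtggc

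Each 300-base window (250 bases before the start and 50 after it) held 4 short CRE sites, counted on both strands with overlapping matches merged. In Nr4a3 the fourth site falls in the exonic stretch that is not printed. Of 32544 promoter windows of the same length, 20.9% held at least 1 such site and 37, or 0.114%, held at least 4, the 3 members included. The windows were not matched for base composition, and the search was made with these sequences in view, so the counts are a description. None of the 3 windows held the full palindromic CRE TGACGTCA, which was in 1.80% of all windows, the NR4A binding element AAAGGTCA (1.52%) or the AP-1 site TGANTCA (7.79%). The positions of the sites differ between members. In Nr4a1 they begin at positions -233, -213, -69 and -40 counted from the start, in Nr4a2 at -200, -144, -123 and -111, and in Nr4a3 at -231, -213, -205 and -147.

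**Figure D1:**
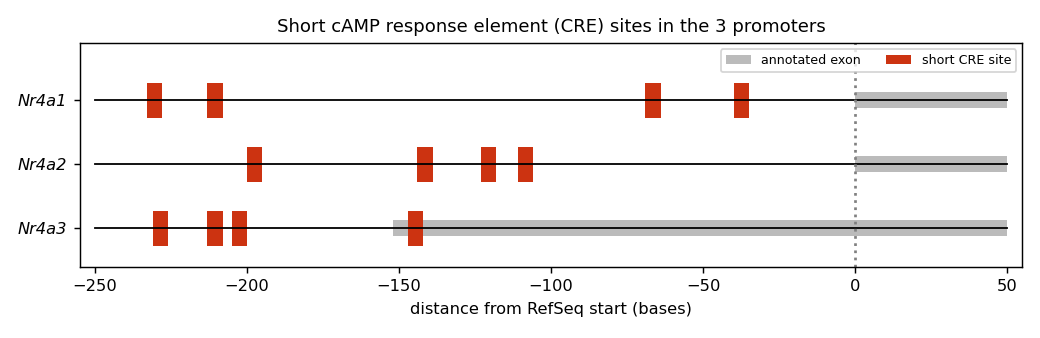
Position of short CRE sites (red) in the 300-base promoter window of each NR4A gene, with distance from the RefSeq start in bases on the x axis and annotated exon in grey. Each gene has 4 sites, all of them before the start, and in Nr4a3 1 of the 4 lies in annotated exon.

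Every NR4A gene was transcribed in unstimulated cells and was much higher in stimulated cells, and the levels formed a lower and an upper tier with no sample in between. Levels within a gene are given in CPM, scaled with TMM over the 16 samples. Nr4a1, the member widely used as a reporter of T cell receptor signalling, was at 61.0, 58.6, 86.9 and 108.5 CPM in unstimulated untreated replicates 1 to 4 and at 70.8, 55.6, 68.2 and 102.8 CPM with PGE2. In stimulated cells it was at 1406, 1248, 1129 and 1009 CPM without PGE2 and at 1320, 1010.5, 786 and 651 CPM with it. The group means were 78.7 ± 23.6, 74.3 ± 20.1, 1198 ± 169 and 942 ± 292 CPM (SD, n = 4) in the same order. The lowest stimulated sample was replicate 4 with PGE2, and it was still far above the highest unstimulated sample.

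Nr4a2, best known from dopaminergic neurons, was the lowest member in CPM in every group. It was at 9.40, 10.1, 16.8 and 26.1 CPM in unstimulated untreated replicates and at 15.5, 14.4, 21.6 and 30.5 CPM with PGE2. In stimulated cells it was at 147.7, 151.5, 116.3 and 140.2 CPM without PGE2 and at 125.8, 105.3, 91.5 and 92.7 CPM with it. The stimulated samples with PGE2 sat lower than those without, apart from replicate 1, which was above untreated replicate 3. The means were 15.6 ± 7.77 and 20.5 ± 7.40 CPM in unstimulated cells without and with PGE2, and 138.9 ± 15.8 and 103.8 ± 15.9 CPM in stimulated cells (SD, n = 4).

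Nr4a3, which overlaps in function with Nr4a1 in T cells, was at 43.8, 51.1, 77.0 and 125.5 CPM in unstimulated untreated replicates and at 83.4, 78.7, 91.0 and 133.5 CPM with PGE2. In stimulated cells it was at 933.9, 857.9, 725.2 and 803.4 CPM without PGE2 and at 1031, 912.3, 659.5 and 600.6 CPM with it. Means were 74.4 ± 37.0, 96.7 ± 25.1, 830 ± 88.1 and 801 ± 204 CPM in the same order (SD, n = 4). For all 3 genes the order of the 4 group means had both stimulated groups above both unstimulated groups. Neighbours within a state, with and without PGE2, overlapped in every case. Replicate 4 was the highest sample of both unstimulated groups for each member, up to 2.87 times the lowest (Nr4a3, untreated).

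**Figure D2:**
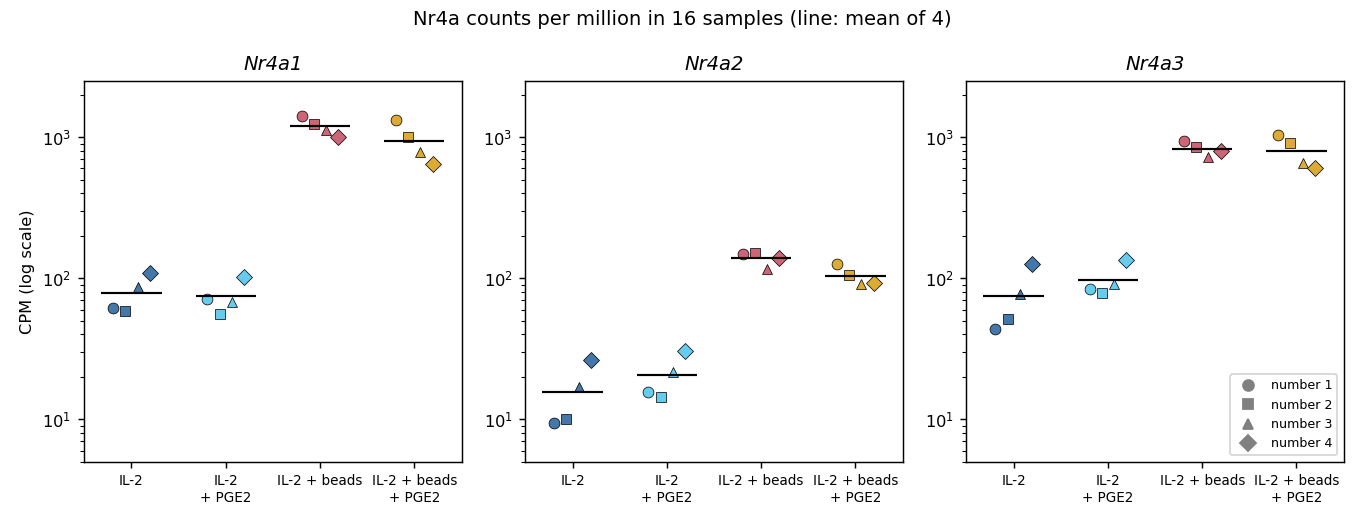
CPM (log axis) of Nr4a1, Nr4a2 and Nr4a3 in each of 16 samples by group; symbols give the replicate number and lines the mean of 4. Stimulated samples sit above all unstimulated samples for each gene, and replicate 4 (diamond) is the highest of each unstimulated group.

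Per unit of gene length, Nr4a1 was the most abundant member in every group. On the FPKM scale its mean level was 21.3 in unstimulated untreated cells, 20.4 with PGE2, 325 in stimulated untreated cells and 255 in stimulated cells with PGE2. Nr4a3 was at 11.8, 15.5, 132 and 127 FPKM in these groups and Nr4a2 at 3.65, 4.86, 32.6 and 24.3 FPKM. The summed FPKM of the family was 36.8 ± 13.9 and 40.8 ± 10.9 in unstimulated cells without and with PGE2, and 490 ± 70.5 and 407 ± 119 in stimulated cells (SD, n = 4). Nr4a1 made up 59.2 ± 4.69% of that sum in unstimulated untreated cells, 50.02 ± 2.16% with PGE2, 66.3 ± 2.32% in stimulated untreated cells and 62.4 ± 2.03% in stimulated cells with PGE2. Nr4a3 made up 31.2%, 38.2%, 27.03% and 31.4% and Nr4a2 9.61%, 11.8%, 6.69% and 6.16%. Among genes of transcription factor families with a level above 0, Nr4a1 ranked 4 of 1123 by FPKM in stimulated untreated cells, Nr4a3 14 and Nr4a2 63, against 90, 191 and 453 of 1120 in unstimulated untreated cells.

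Stimulation raised all 3 members, both without and with PGE2. A gene passed at an adjusted p below 0.05 in edgeR's quasi-likelihood test, with adjustment over all genes tested. Without PGE2, 3 of 3 members rose, against 31.7% of 14205 genes that rose and 34.8% that fell. The log2 fold change of Nr4a1 was 3.91 (SE 0.203, edgeR adjusted p = 1.74e-08), a ratio of mean CPM of 15.2. Nr4a3 rose by 3.46 on the log2 scale (SE 0.280, edgeR adjusted p = 3.33e-07), a ratio of 11.2. For Nr4a2 the rise was 3.13 (SE 0.265, edgeR adjusted p = 4.99e-07), a ratio of 8.91. These were the 44th, 73rd and 104th highest log2 fold changes of the 14205 genes, and the 3rd, 9th and 15th of 827 transcription factor genes. In bulk RNA, more cells with a transcript and more transcript per cell cannot be told apart.

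With PGE2, 3 of 3 members again rose, against 32.5% of 14507 genes that rose and 31.7% that fell. Nr4a1 rose by 3.68 (SE 0.258, edgeR adjusted p = 1.65e-06) and Nr4a3 by 3.07 (SE 0.224, edgeR adjusted p = 2.01e-06) on the log2 scale. The rise of Nr4a2 was 2.35 (SE 0.228, edgeR adjusted p = 8.05e-06). As ratios of mean CPM these were 12.7, 8.28 and 5.06. Among 834 transcription factor genes Nr4a1 was then 4th, Nr4a3 15th and Nr4a2 28th. In each same-numbered pair, with and without PGE2, all 3 genes were higher with beads. The size varied between pairs, from 3.22 to 4.53 for Nr4a1, 2.42 to 3.97 for Nr4a2 and 2.68 to 4.41 for Nr4a3 without PGE2, with the smallest rise in number 4 each time.

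**Figure D3:**
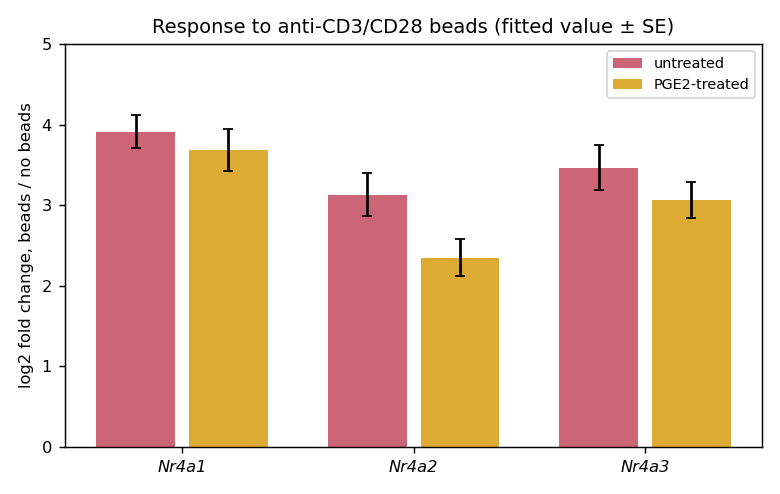
Fitted log2 fold change (bars, ± SE) of stimulated over unstimulated samples, 4 against 4, for cells without PGE2 (red) and with PGE2 (yellow). The bars run from 2.35 (Nr4a2 with PGE2) to 3.91 (Nr4a1 without PGE2).

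Stimulated cells without PGE2 were also set against unstimulated cells with PGE2. PGE2 was added 1 h before the 4 h period with or without beads, so the exposures were not matched in time. Each was given at 1 dose, and RNA was taken at 1 time. The comparison therefore describes levels at that time and does not rank beads and PGE2 as inducers. All 3 members were higher after beads (34.4% of 14451 genes were higher and 37.1% lower). The log2 difference was 3.98 (SE 0.182, edgeR adjusted p = 2.40e-09) for Nr4a1, 2.73 (SE 0.203, edgeR adjusted p = 1.05e-07) for Nr4a2 and 3.08 (SE 0.160, edgeR adjusted p = 5.90e-09) for Nr4a3. This comparison shares samples with those above.

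In unstimulated cells the PGE2 differences were small beside those of stimulation. No member passed in the main edgeR fit, which had no block on replicate number (12.9% of 14505 genes rose and 15.5% fell). The log2 fold change was 0.41 for Nr4a2 (SE 0.324, edgeR adjusted p = 0.388), 0.40 for Nr4a3 (SE 0.290, edgeR adjusted p = 0.351) and -0.064 for Nr4a1 (SE 0.215, edgeR adjusted p = 0.864). Most of the spread of the members ran along the replicate numbers. Over the genes kept in all 16 samples, deviations of same-numbered samples correlated weakly to moderately, at 0.137 to 0.444. Samples of different numbers reached at most 0.124. With the number as a block, Nr4a2 rose by 0.45 (SE 0.0740, edgeR adjusted p = 8.90e-05) and Nr4a3 by 0.46 (SE 0.0855, edgeR adjusted p = 0.000268). Nr4a1 stayed at -0.059 (edgeR adjusted p = 0.436). Under the block 23.6% of genes rose and 24.2% fell. Nr4a2 was higher with PGE2 in 4 of 4 numbers, by 0.72, 0.51, 0.36 and 0.23 for numbers 1 to 4, and Nr4a3 likewise by 0.93, 0.62, 0.24 and 0.090. The differences of Nr4a1 were 0.21, -0.075, -0.35 and -0.078.

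In stimulated cells no member passed in the main edgeR fit, which had no replicate block (6.04% of 13922 genes rose and 3.8% fell). The log2 fold change with PGE2 was then -0.41 for Nr4a2 (SE 0.117, edgeR adjusted p = 0.0522), -0.34 for Nr4a1 (SE 0.195, edgeR adjusted p = 0.284) and -0.044 for Nr4a3 (SE 0.162, edgeR adjusted p = 0.883). Nr4a1 passed only with the block. Nr4a2 passed with the block and also in some alternative fits without it, among them DESeq2 (-0.43, DESeq2 adjusted p = 0.0168). Both were lower with PGE2. Deviations of same-numbered samples correlated at 0.190 to 0.423 here, but samples of different numbers reached 0.250. Of the 8 samples, 6 correlated best with their own number. With the replicate block, Nr4a2 fell by 0.42 (SE 0.0608, edgeR adjusted p = 0.000452) and Nr4a1 fell by 0.38 (SE 0.0798, edgeR adjusted p = 0.00351) on the log2 scale. Under the block 19.1% of genes rose and 20.7% fell. Nr4a3 was at -0.074 (edgeR adjusted p = 0.509). Nr4a2 was lower with PGE2 in 4 of 4 numbers, by log2 differences of -0.23, -0.52, -0.35 and -0.60. Nr4a1 was also lower in 4 of 4, at -0.091, -0.30, -0.52 and -0.63. Nr4a3 was higher in numbers 1 and 2 (0.14 and 0.089) and lower in 3 and 4 (-0.14 and -0.42).

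**Figure D4:**
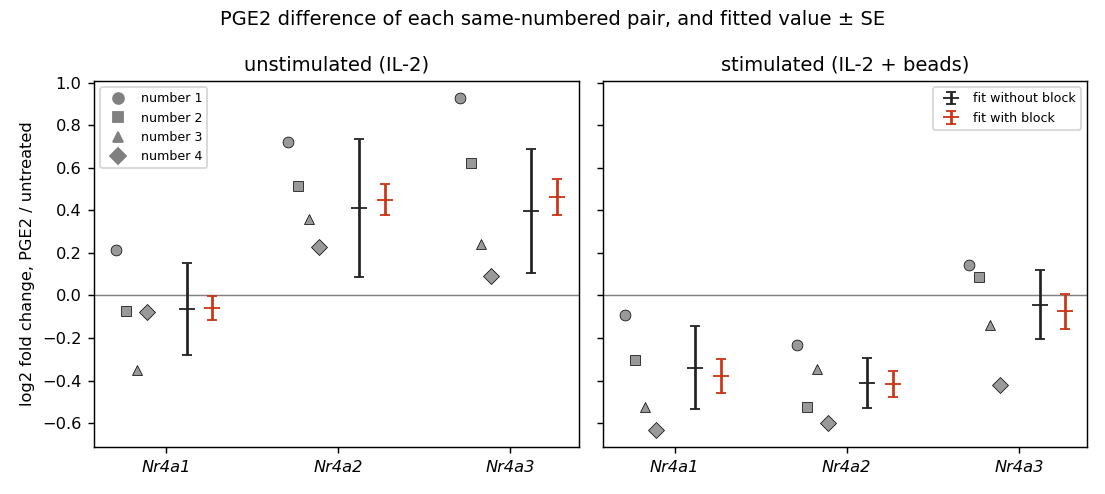
Log2 fold change with PGE2 against without it in unstimulated (left) and stimulated cells (right). Grey symbols are the 4 same-numbered pairs, black marks the fitted value without a block and red with the replicate block, each ± SE. All 4 pairs of Nr4a2 lie above 0 in unstimulated cells and below 0 in stimulated cells.

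Whether the PGE2 difference itself depended on the beads was asked with the interaction term over all 16 samples. It was negative for each member, at -0.81 for Nr4a2 (SE 0.371, edgeR adjusted p = 0.511), -0.43 for Nr4a3 (SE 0.367, edgeR adjusted p = 0.849) and -0.26 for Nr4a1 (SE 0.318, edgeR adjusted p = 0.918), and none passed (0.517% of 15096 genes were higher and 0.232% lower). With a replicate block within each state, chosen after the data were seen, the interaction of Nr4a2 was -0.84 (SE 0.0977, edgeR adjusted p = 1.84e-05), that of Nr4a3 -0.53 (SE 0.145, edgeR adjusted p = 0.0228) and that of Nr4a1 -0.31 (edgeR adjusted p = 0.0910). In that fit 8.2% of genes were higher and 3.23% lower.

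Ratios between members within a sample, which are free of library size, differed between groups in some comparisons. The 12 ratio comparisons were made with two-sided exact permutation tests of 4 against 4, for which 0.0286 is the smallest p possible, and adjusted over the 12. The 7 that passed all had this smallest p. Their adjusted p of 0.0490 thus depends on how many comparisons reached it, those of stimulation included. The tests did not use the replicate numbers. Nr4a3 counts relative to Nr4a1 counts were 0.717, 0.873, 0.887 and 1.16 in unstimulated untreated replicates 1 to 4 and 1.18, 1.42, 1.33 and 1.30 with PGE2. The groups did not overlap, and the log2 ratio was higher with PGE2 by 0.54 (exact permutation adjusted p = 0.0490). In stimulated cells this ratio was 0.664, 0.688, 0.642 and 0.796 without PGE2 and 0.781, 0.903, 0.839 and 0.923 with it, higher in 4 of 4 numbers, but the groups overlapped (log2 difference 0.31, exact permutation adjusted p = 0.0686).

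Nr4a3 relative to Nr4a2 in stimulated cells was 6.32, 5.66, 6.24 and 5.73 without PGE2 and 8.19, 8.66, 7.21 and 6.48 with it, without overlap. The log2 difference was 0.34 (exact permutation adjusted p = 0.0490). In unstimulated cells PGE2 left that ratio at a log2 difference of 0.015 (exact permutation adjusted p = 0.914). Nr4a2 relative to Nr4a1 differed by 0.53 with PGE2 in unstimulated cells, 4 of 4 numbers higher (exact permutation adjusted p = 0.0686), and by -0.036 in stimulated cells (exact permutation adjusted p = 0.873). Stimulation lowered Nr4a2 relative to Nr4a1, by -0.69 without PGE2 and -1.26 with it, and raised Nr4a3 relative to Nr4a2, by 0.33 and 0.66 (exact permutation adjusted p = 0.0490 in all 4 comparisons). Nr4a3 relative to Nr4a1 moved by -0.37 without PGE2 (exact permutation adjusted p = 0.0686) and by -0.60 with it (exact permutation adjusted p = 0.0490).

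**Figure D5:**
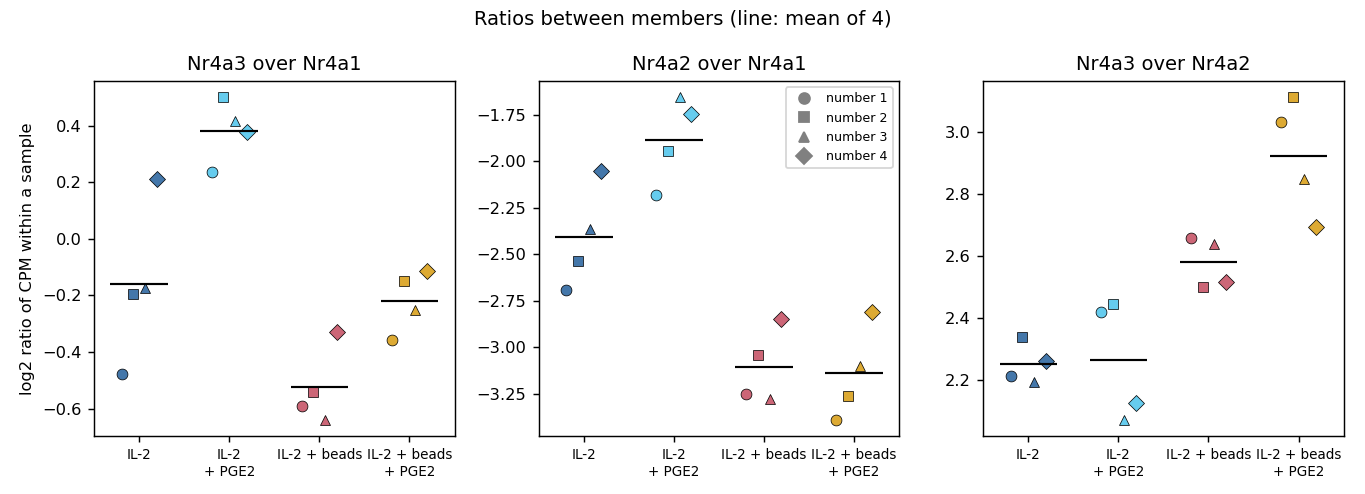
Log2 ratio of the CPM of 2 members within each of 16 samples, by group; symbols give the replicate number and lines the mean of 4. The ratio of Nr4a3 to Nr4a1 was higher with PGE2 in unstimulated cells with no overlap, and that of Nr4a3 to Nr4a2 was higher with PGE2 in stimulated cells with no overlap.

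Among 12252 genes whose mean level reached 1 CPM, the profiles most like each member over the 16 samples were found by the root mean square (RMS) difference of centred log2 CPM, which is a description of samples that share 2 states. The 5 nearest to Nr4a1 were Mir155hg (RMS 0.210), the host transcript of miR-155, Tagap (0.253), Cd83 (0.254), Nfkbid (0.255) and Plk2 (0.280). Mir155hg was at 6.07 ± 2.39 and 6.41 ± 1.28 CPM in unstimulated cells without and with PGE2 and at 97.8 ± 17.4 and 85.7 ± 24.8 CPM in stimulated cells (SD, n = 4). Nearest to Nr4a2 were Adarb1 (0.209), which encodes an RNA-editing enzyme, Tnfsf11 (0.241), which encodes RANKL, Fos (0.265), Fosb (0.300) and Nr4a3 itself (0.302). Nearest to Nr4a3 were Tnfsf11 (0.199), Ncs1 (0.201), Atf3 (0.275), Adarb1 (0.292) and Lilr4b (0.300), the last of which has a close paralog that could share reads. Nr4a2 and Nr4a3 (0.302) were nearer to each other than Nr4a1 was to Nr4a3 (0.360) or to Nr4a2 (0.563).

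The gene groups that surround the family in T cells are given by counts of genes that passed, from lists fixed by name. For the interaction, 0.517% of all genes were higher and 0.232% lower, and 8.2% and 3.23% with the block within each state. Of 24 other immediate-early genes of T cell activation, 22 rose and 1 fell upon stimulation without PGE2, with a median log2 fold change of 2.16 against -0.031 over all genes. Spry1, a feedback inhibitor of growth factor signalling, rose by 4.56, Nfkbid by 3.87, Egr2 by 3.69 and Irf4 by 3.45 on the log2 scale. With PGE2, 21 rose and 1 fell (median 1.85). Over all genes 31.7% rose and 34.8% fell upon stimulation without PGE2, and 32.5% and 31.7% with it. The log2 rise of Nr4a1 without PGE2 (3.91) was close to that of Nfkbid.

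PGE2 in stimulated cells lowered 4 of the 24 and raised 0. These were Egr2 (log2 fold change -1.04, edgeR adjusted p = 0.0439), Egr3 (-0.89, edgeR adjusted p = 0.0216) and Egr1 (-0.81, edgeR adjusted p = 0.00886), zinc-finger factors induced by the T cell receptor, and Zfp36 (-0.41, edgeR adjusted p = 0.00922), which promotes mRNA decay. With the replicate block 14 fell and 2 rose. Over all genes 6.04% rose and 3.8% fell (19.1% and 20.7% with the block). The median of the 24 was -0.22 against -0.0061 over all genes. In unstimulated cells PGE2 raised 4 and lowered 6 of the 24 (12 and 11 with the block). Over all genes it raised 12.9% and lowered 15.5% (23.6% and 24.2% with the block). Among the listed genes that passed were Tnfaip3, an inhibitor of NF-kB, at 0.98 and Egr3, Egr1 and Myc at -1.07, -0.99 and -0.97. The interaction passed for 2, Tnfaip3 (-1.12) and Btg2 (-0.58). With the replicate block within each state it was negative for 11 and positive for 2.

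Of the cAMP and CREB list, 10 of 23 genes tested rose and 2 fell with PGE2 in unstimulated cells, and 9 of 24 rose and 0 fell in stimulated cells. With the block the counts were 17 and 2, then 15 and 2. Over all genes 12.9% rose and 15.5% fell in unstimulated cells (23.6% and 24.2% with the block). In stimulated cells these shares were 6.04% and 3.8% (19.1% and 20.7% with the block). Crem, a CREB family gene that cAMP induces, rose by 1.67 on the log2 scale in unstimulated cells (edgeR adjusted p = 1.81e-05) and by 1.45 in stimulated cells (edgeR adjusted p = 0.000303). Fosl2 rose by 1.56 and 0.72 in the 2 states. Rgs2 rose by 1.89 in unstimulated cells, where the clock gene Per2 fell by 1.58, and the phosphodiesterases Pde4d and Pde4b, which degrade cAMP, rose by 1.04 and 0.98 in stimulated cells. The median of the list was 0.26 in unstimulated and 0.23 in stimulated cells, against -0.0010 and -0.0061 over all genes. Upon stimulation 8 of 23 genes were higher and 10 lower without PGE2, and 5 of 24 higher and 10 lower with it. The shares over all genes were 31.7% and 34.8% without PGE2, and 32.5% and 31.7% with it. The interaction passed for 3 of its genes, Rgs2 (-1.67), Per2 (1.204) and Per1 (-0.45). With the block within each state 4 genes were higher and 6 lower.

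Of the calcium, NFAT and MEF2 genes that act upstream of the family, stimulation without PGE2 raised 2 and lowered 9 of 16. Over all genes it raised 31.7% and lowered 34.8%. Nfatc1, an inducible NFAT gene, rose by 1.43, and Hdac5, a class IIa deacetylase that restrains MEF2, fell by 1.80 on the log2 scale. With PGE2 3 of 17 rose and 11 fell (32.5% and 31.7% of all genes). PGE2 raised 5 and lowered 2 of 17 in unstimulated cells (5 and 7 with the block), and raised 2 and lowered 3 of 16 in stimulated cells (4 and 4 with the block). Over all genes it raised 12.9% and lowered 15.5% in unstimulated cells (23.6% and 24.2% with the block). In stimulated cells these shares were 6.04% and 3.8% (19.1% and 20.7% with the block). The kinase gene Camk4 rose in both states, by 1.10 and 1.04. Ppp3ca, which encodes a catalytic subunit of calcineurin, fell by 0.55 and 0.50. In stimulated cells Nfatc1 and Nfatc2 fell by 0.55 and 0.49. In the interaction 0 of 17 passed without a block, and 3 were higher and 3 lower with the block within each state.

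The retinoid X receptors are partners with which NR4A1 and NR4A2 can form heterodimers. Of these and other nuclear receptors, 7 of 21 tested rose and 7 fell upon stimulation without PGE2, and 7 of 20 rose and 9 fell with it. The counts without PGE2 are near the shares over all genes, 31.7% and 34.8%, and with PGE2 those shares were 32.5% and 31.7%. PGE2 raised 4 and lowered 2 of 19 in unstimulated cells (6 and 5 with the block) and raised 1 and lowered 3 of 21 in stimulated cells (6 and 4 with the block). Over all genes it raised 12.9% and lowered 15.5% in unstimulated cells (23.6% and 24.2% with the block). In stimulated cells these shares were 6.04% and 3.8% (19.1% and 20.7% with the block). Rxra fell with PGE2 in both states, from 22.3 ± 1.28 to 12.9 ± 1.97 CPM in unstimulated cells (log2 fold change -0.78, edgeR adjusted p = 0.000160) and from 50.8 ± 7.41 to 22.5 CPM in stimulated cells (-1.17, edgeR adjusted p = 0.00288), each n = 4. Its groups did not overlap in either state. In the interaction 0 of 21 passed, and with the block within each state 2 were higher and 1 lower. The thyroid hormone receptor gene Thra fell by 2.33 upon stimulation without PGE2.

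Genes reported in T cells to be raised by NR4A factors, most of them inhibitory receptors and exhaustion genes, were mixed upon stimulation (5 of 11 higher and 3 lower without PGE2, 4 and 3 with it). The shares over all genes were 31.7% and 34.8% without PGE2, and 32.5% and 31.7% with it. Havcr2 (TIM-3), Pdcd1 (PD-1) and Lag3 rose by 2.85, 2.14 and 1.70 without PGE2. Mean Ikzf2 was instead lower, at 131.9 ± 14.9 CPM in unstimulated and 52.1 ± 10.4 CPM in stimulated untreated cells (SD, n = 4). Upon stimulation with PGE2, Entpd1 fell by 0.94 on the log2 scale. With PGE2, 5 of 11 rose and 0 fell in unstimulated cells (6 and 1 with the block), and 3 rose and 1 fell in stimulated cells (4 and 3 with the block). Over all genes 12.9% rose and 15.5% fell in unstimulated cells (23.6% and 24.2% with the block). In stimulated cells these shares were 6.04% and 3.8% (19.1% and 20.7% with the block). Pdcd1 rose by 1.58 with PGE2 in unstimulated cells and its interaction was -1.75 (edgeR adjusted p = 0.0316), the 1 gene of this list to pass, against 2 higher and 3 lower with the block within each state. Ikzf2, which encodes the factor Helios, rose by 0.98 and 1.66 in the 2 states and Ctla4 by 0.58 and 0.93, whereas Havcr2 fell by 0.90 in stimulated cells.

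Of the genes reported to be restrained by NR4A factors, 8 of 9 rose and 1 fell upon stimulation without PGE2, and 7 rose and 1 fell with it, with medians of 2.80 and 2.79. The shares over all genes were 31.7% and 34.8% without PGE2, and 32.5% and 31.7% with it. With PGE2, 0 rose and 4 fell in unstimulated cells (median -0.60) and 0 rose and 5 fell in stimulated cells (median -0.84). With the block 1 rose and 6 fell in each state. Over all genes 12.9% rose and 15.5% fell in unstimulated cells (23.6% and 24.2% with the block). In stimulated cells these shares were 6.04% and 3.8% (19.1% and 20.7% with the block). In stimulated cells the cytokine genes Il2 and Tnf fell by 1.95 and 1.32 on the log2 scale, Gzmb, which encodes granzyme B, by 0.91 and the AP-1 factor Batf by 0.84. The interaction passed for Batf alone (-0.67), and with the block within each state 2 genes were higher and 2 lower. Irf4 is in this list and in the immediate-early list.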

How the data were processed

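RNA-seq data of 16 samples, 4 in each of 4 groups given by the sample labels, were used. The authors deposited whole-number counts per gene without normalization and FPKM values derived from them by gene length. Poly(A)-selected libraries (NEBNext Ultra) were aligned to GRCm38 with HISAT2 2.0.5 and counted with featureCounts 1.5.0-p3, and the authors tested with DESeq2 1.20.0, as the submitters' processing notes give. The annotation release, counting options and use of strand are not given in the sources used here. Nor is it stated whether replicates came from separate mice, so p-values measure the spread between these samples.

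Counts were analysed with edgeR 4.0.16 in R 4.3.3: low counts were filtered by filterByExpr at 10 counts, libraries were scaled by TMM, and the two-sided glmQLFTest was adjusted by Benjamini-Hochberg over all genes tested, and a threshold of 0.05 with no fold limit. Pairwise fits held the 8 samples compared. CPM used TMM over 16 samples, log2 CPM a prior count of 2. GENCODE M21 supplied coordinates for 54409 of 54532 identifiers. Alternatives were DESeq2 1.42.0, RLE and upper-quartile factors, no filter, limma 3.58.1 on log2(FPKM + 1) and log2(FPKM + 0.1), a replicate block, 1 fit of 16 samples and leaving out each sample. The script was tested on simulated counts.

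Replicate numbers were taken to pair samples where each same-numbered pair had a correlation of deviations from the group means above 0.1. It was 0.137 to 0.444 for PGE2 in unstimulated cells, 0.190 to 0.423 for PGE2 in stimulated cells and 0.112 to 0.359 for stimulation without PGE2, and as low as 0.0439 for stimulation with PGE2. Between samples of different numbers the highest correlation was 0.124, 0.250, 0.125 and 0.157 in the same order. Of these, only the value for PGE2 in unstimulated cells lay below the lowest same-numbered one. The pairing comes from this check and from no label. The members and lists were chosen with earlier results of these data known. From each list up to 4 passing genes per comparison could be named, those of largest change among genes averaging 1 CPM or more, and for each member the 5 most alike genes.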

Additional observations from a re-analysis of the deposited data

Results flagged for a closer look

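The PGE2 difference of Nr4a2 and of Nr4a3 differed between stimulated and unstimulated cells when the replicate number was a block within each state. The interaction was -0.84 for Nr4a2 and -0.53 for Nr4a3 on the log2 scale (edgeR adjusted p = 1.84e-05 and 0.0228), and neither passed without that block. The block was chosen after the data were seen. All 4 pairs of Nr4a2 were higher with PGE2 in unstimulated cells and lower in stimulated cells. No sample stood apart from the other 3 of its group for any member (12 groups of 4 values checked with Dixon's 95% limit).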

How the results depend on the processing

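Stimulation passed for all 3 members in every alternative fit, with and without PGE2, and the blocked fits changed no call there. The PGE2 values were less settled. With the replicate block the value in unstimulated cells was 0.45 for Nr4a2 and 0.46 for Nr4a3, and in stimulated cells -0.38 for Nr4a1 and -0.42 for Nr4a2, all past the threshold. Of 8 samples per comparison, 8 correlated best with their own number for PGE2 in unstimulated cells and 6 in stimulated cells. Nr4a2 in stimulated cells, just short of the threshold in edgeR (adjusted p = 0.0522), passed at -0.43 in DESeq2 (adjusted p = 0.0168), at -0.40 with upper-quartile factors (edgeR adjusted p = 0.0405) and at -0.42 without a filter (edgeR adjusted p = 0.0326). Over its alternatives the adjusted p ran from 0.000452 to 0.281. Blocked within each state, the interaction passed for Nr4a2 (-0.84) and Nr4a3 (-0.53), and the block common to both states gave edgeR adjusted p values of 0.258 and 0.632 for them.

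Leaving out 1 sample at a time, PGE2 in unstimulated cells gave -0.27 to 0.13 for Nr4a1, whose sign turned to 0.13 without untreated replicate 4 and to 0.069 without PGE2 replicate 2. Nr4a2 gave 0.15 to 0.78 and Nr4a3 0.20 to 0.77, the latter passing at 0.77 without untreated replicate 4 (edgeR adjusted p = 0.0266). In stimulated cells Nr4a1 gave -0.54 to -0.20. Nr4a2 gave -0.51 to -0.36, passing without untreated replicate 3 (edgeR adjusted p = 0.0434) and without PGE2 replicate 1 (edgeR adjusted p = 0.0141). Nr4a3 gave -0.19 to 0.072, turning to 0.027 without untreated replicate 1, 0.040 without PGE2 replicate 3 and 0.072 without PGE2 replicate 4. The interaction gave -0.47 to -0.082 for Nr4a1, -1.18 to -0.56 for Nr4a2 and -0.81 to -0.24 for Nr4a3, passing in no case. For Nr4a3 it was -0.81 without unstimulated untreated replicate 4, and -0.24 without unstimulated untreated replicate 1. For Nr4a1 it was smallest, -0.082, without unstimulated PGE2 replicate 4. The cause was not tested.

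The number of genes called moved as well. For PGE2 in unstimulated cells it was 4122 without and 6938 with the block. In stimulated cells it was 1370, against 5544 with the block, 2066 in DESeq2, 2161 in 1 fit of 16 samples and 679 in limma on unfiltered FPKM. Leaving out 1 sample took that count to between 630 (without untreated replicate 2 or PGE2 replicate 3) and 1854 (without PGE2 replicate 1). For the interaction it was 113, against 236 in DESeq2, 37 to 53 in limma, 408 with the common block and 1726 with the block within states, and it ran from 44 without unstimulated untreated replicate 2 to 217 without stimulated PGE2 replicate 4. Upper-quartile factors moved the median log2 fold change of all genes upon stimulation without PGE2 from -0.031 to -0.13. Shares of the family taken from counts without gene length put Nr4a1 at 48.0% in place of 59.2% in unstimulated untreated cells. The 7 ratio differences that passed also passed on log2(FPKM + 0.1).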
